A study of Mus musculus with 12 samples.

Results

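The transcriptome response of HT22 cells to the iron chelator DFO (deferoxamine) was examined in cells that carried a control siRNA. HT22 is an immortalized mouse line derived from hippocampal neurons. The comparison used 6 of the 12 libraries of the series, namely 3 of cells with control siRNA and DFO at 100 µM for 24 h (siControl plus DFO) and 3 of cells with control siRNA alone (siControl). All 4 groups of the series, of 3 biological replicates each, had received siRNA by liposome. The other groups carried siRNA against Ncoa4, without DFO (siNCOA4) or with it (siNCOA4 plus DFO), and they served only to ask whether a change recurred in separate libraries. The labels do not say whether replicates came from separate passages, so p-values measure the spread between these cultures. Genes entered the comparison when their level was at least 0.5 FPKM in at least 3 of the 6 libraries. FPKM, the deposited unit, is the number of fragments scaled to transcript length and to the mapped fragments of the library. Of 24343 genes with a name of their own, 11433 met this minimum and 8465 were listed at 0 in all 6 libraries.

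Iron enters most cells bound to transferrin, is held in ferritin and is built into heme, iron-sulfur clusters and the active sites of oxygenases. When free iron falls, the iron regulatory proteins IRP1 and IRP2 bind stem-loops called iron-responsive elements (IREs). Binding in the 3' untranslated region protects the Tfrc transcript, and binding in the 5' untranslated region blocks translation of ferritin. The prolyl hydroxylases that mark hypoxia-inducible factor (HIF) for decay need iron, so chelators can raise HIF targets at normal oxygen. Ribonucleotide reductase also needs iron, and chelators are known to slow S phase and to raise p53.

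The label of the cells was compared with marker genes. Of 14 neuron markers, 2 met the minimum and 4 (Rbfox3, Snap25, Gad1 and Chat) were listed at 0 in all 6 libraries. Their summed level was 13.97 to 14.8 FPKM in siControl and 17.7 to 18.7 FPKM with DFO, mostly from Tubb3 and Syn1. All 6 fibroblast or mesenchymal markers, which include Col1a1 and Vim, met the minimum, with sums of 3126 to 3554 FPKM in siControl and 1851 to 1929 FPKM with DFO. The cells are therefore referred to by the name of the line only. In bulk RNA, fewer cells of a kind and less RNA per cell cannot be told apart. Depth, read from the steps between low FPKM values and set to 1 for siControl replicate 1, was 1 to 1.25 in siControl and 1.06 to 1.25 with DFO. Small RNA genes held 40.6 to 44.7% of the summed FPKM in siControl and 45.3 to 48.6% with DFO, and scaling to an equal sum over all other genes gave 2136 called genes, 1196 higher and 940 lower, against the 2125 given below. Genes above 0 numbered 12643 to 12804 in siControl and 13548 to 13618 with DFO.

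DFO changed a large part of the expressed transcriptome, with more genes called higher than lower. With limma on log2(FPKM + 0.1) and Benjamini-Hochberg adjustment, 6092 of 11433 genes had an adjusted p below 0.05 (53.3%), of which 3162 were higher (27.7%) and 2930 lower (25.6%) with DFO. A gene was called when it also changed by more than 2-fold. This gave 2125 calls (18.6%), 1245 higher (10.9%) and 880 lower (7.7%). The FPKM of the groups did not overlap for 7102 genes (62.1%). Of the genes tested, 190 reached 0.5 FPKM only with DFO and 72 only in siControl. The former could enter only as rises and the latter only as falls. Over the other 11171 genes 1072 were called higher (9.6%) and 814 lower (7.29%). Among all calls, with those 190 and 72 genes kept in, rises were larger than falls. The median change of called genes was 1.62 log2 units for rises and -1.39 for falls, and 200 rises but 34 falls exceeded 3 log2 units. All log2 fold changes are on the log2(FPKM + 0.1) scale, which understates the change of low genes. Of the rises, 45 were of genes listed at 0 in every siControl library, and 421 were of genes with a mean of at least 20 FPKM. The median over all genes tested was -0.02.

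Mdm2, the ubiquitin ligase that degrades p53 and is itself a p53 target, had 1 of the largest rises among abundant transcripts. With small RNA genes left out, only Sprr1a and Cxcl10 ranked above Mdm2. The level of Mdm2 was 31.1, 28.4 and 32.5 FPKM in siControl replicates 1 to 3 and 2895, 2754 and 2528 FPKM with DFO, or 30.7 ± 2.05 and 2726 ± 185 (mean ± SD, n = 3). The log2 fold change was 6.47 (standard error 0.091, adjusted p = 2.13e-08). Tfrc, the transferrin receptor that brings iron into the cell, was at 72.5, 68.6 and 69.8 FPKM without DFO and 319, 318 and 348 FPKM with it (log2 fold change 2.22, standard error 0.073, adjusted p = 5.54e-07). Ero1l, the oxidase that drives disulfide formation in the endoplasmic reticulum and is a HIF target, was at 14.2, 12.7 and 10.1 FPKM and then 173, 193 and 201 FPKM (log2 fold change 3.94, standard error 0.13, adjusted p = 5.54e-07). Ndrg1, a stress gene known for its rise under iron chelators and hypoxia, was at 42.5, 37.9 and 34.1 FPKM and then 343, 349.9 and 326 FPKM (log2 fold change 3.16, standard error 0.093, adjusted p = 3.55e-07). The genes lie at chr10:117688875-117710758 (Mdm2), chr16:32608896-32632794 (Tfrc), chr14:45283087-45318572 (Ero1l) and chr15:66929318-66969641 (Ndrg1) in GRCm38.p6. For these 4 genes every DFO library lay above every siControl library, though groups also did not overlap for 62.1% of all genes tested. Leaving out any 1 library kept all 4 calls.

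**Figure D1:**
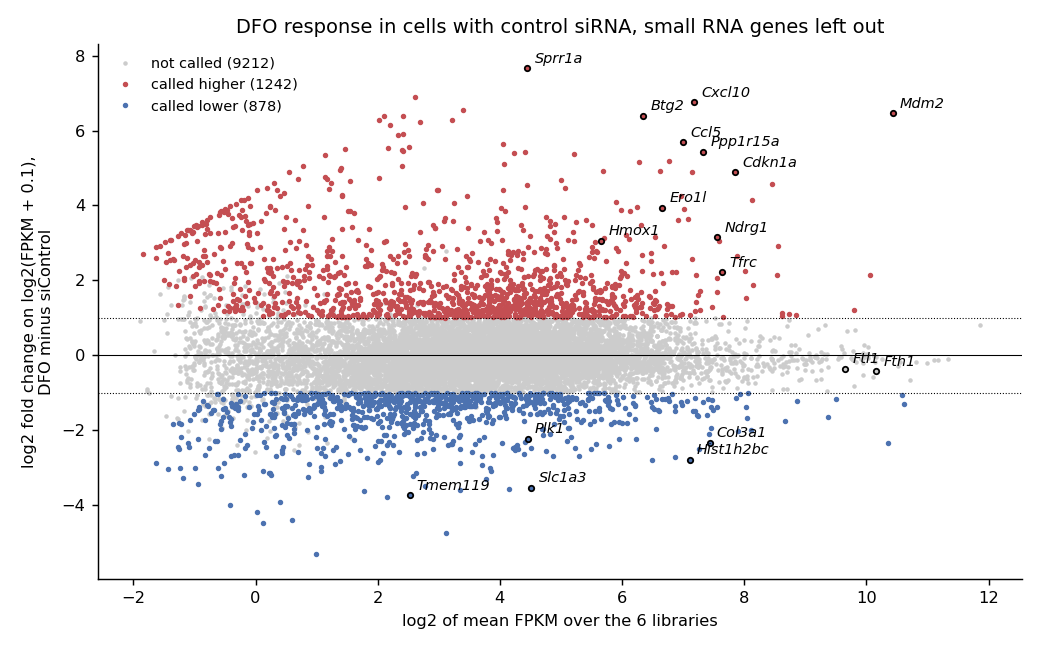
Each point is 1 of the genes tested, small RNA genes left out, with the log2 of its mean FPKM over the 6 libraries on the horizontal axis and its log2 fold change with DFO on the vertical axis. Red and blue points are called genes, dotted lines mark 2-fold, and Mdm2 at 6.47 combines a high level with one of the largest rises.

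Among the most abundant genes that moved (mean of at least 20 FPKM, small RNA genes left out, 6 named each way by rule), the rises were in Sprr1a, Cxcl10, Mdm2, Btg2, Ccl5 and Ppp1r15a. Cxcl10, a chemokine of the interferon response, was at 2.74, 4.90 and 1.17 FPKM in siControl and 292, 325 and 240.0 FPKM with DFO (log2 fold change 6.76, standard error 0.42, adjusted p = 8.9e-06). Ccl5, a chemokine for T cells and monocytes, went from 3.39, 5.35 and 5.85 to 232, 290.3 and 229 FPKM (log2 fold change 5.69, standard error 0.20, adjusted p = 6.74e-07). Sprr1a, a cornified envelope protein also induced in injured neurons, was listed at 0 in siControl replicates 1 and 2 and at 0.871 FPKM in replicate 3, against 45.2, 47.4 and 37.6 FPKM with DFO. Because of these zeros its fitted value of 7.66 depends on the pseudocount. Among genes named for their change at a mean of at least 1 FPKM were Rsad2, Zfp750 and Cd80, which reached 0.5 FPKM only with DFO, of which Rsad2, an antiviral enzyme, was at 0.359, 0.143 and 0 and then 23.1, 20.4 and 18.9 FPKM. Krt16, Ccl4 and Ifnb1 (interferon beta) were listed at 0 in all siControl libraries, and Ifnb1 was at 7.94, 10.97 and 5.35 FPKM with DFO.

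Iron-responsive elements are shown because Tfrc and ferritin are the textbook targets of the iron regulatory proteins. Their part in the changes was not tested. A script searched the GENCODE M21 transcripts (GRCm38) of Tfrc, Slc11a2, Fth1 and Ftl1 for a loop of the letters CAGTGN, with any base but G at the last place. The loop had to close an upper stem of 5 base pairs with a C just before it. The search found 4 matches in the 3' untranslated region of Tfrc, 1 in the 5' untranslated region of Fth1 and 1 in that of Ftl1. The Tfrc matches lay in 1 of its 2 protein-coding transcripts, that of Ftl1 in 1 of 2 and that of Fth1 in 3 of 3. The pattern had no match in Slc11a2, which says only that these letters were not found. Capitals mark the loop.
Tfrc IRE A, chr16:32631220-32631246, plus strand: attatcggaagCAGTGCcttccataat
Tfrc IRE B, chr16:32631599-32631625, plus strand: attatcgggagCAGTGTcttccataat
Tfrc IRE C, chr16:32631664-32631690, plus strand: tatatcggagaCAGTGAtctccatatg
Tfrc IRE D, chr16:32631711-32631737, plus strand: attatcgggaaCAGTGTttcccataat
Fth1 IRE, chr19:9982733-9982759, plus strand: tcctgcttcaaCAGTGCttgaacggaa
Ftl1 IRE, chr7:45459780-45459806, minus strand: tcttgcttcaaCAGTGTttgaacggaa

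More iron uptake genes rose than fell, and the ferritin transcripts fell slightly. Of 29 genes of iron uptake, storage, export and sensing, 20 met the minimum. With DFO 8 of these rose, 6 fell and 6 did not pass the test, and the median change was -0.07 against -0.02 for all genes, or 0.17 when low members were kept. Among all genes 27.7% rose and 25.6% fell. Called higher were 2 of the 20 (10%, close to the 10.9% of all genes). Among 8 uptake genes 5 rose, of which Mcoln1 only marginally (below), and 2 fell. Beside Tfrc, with the 4 matches above (a count of these letters, not of all its elements), the zinc and iron importer Slc39a14 (ZIP14) went from 4.03, 5.12 and 4.79 to 15.1, 16.3 and 16.7 FPKM (log2 fold change 1.77, standard error 0.13, adjusted p = 1.85e-05). Slc11a2, the divalent metal transporter DMT1, rose less, from 8.10, 9.39 and 9.58 to 13.7, 14.1 and 15.5 FPKM (log2 fold change 0.67, standard error 0.11, adjusted p = 0.00146). Steap1 rose (0.89, adjusted p = 0.00037), while its relatives Steap2 (-0.90, adjusted p = 0.000834) and Steap3 (-0.61, adjusted p = 0.0111) fell. Slc39a8 (ZIP8) was at 4.25, 4.67 and 4.77 FPKM and then 2.72, 3.48 and 5.47 FPKM, and its groups overlapped (-0.28, adjusted p = 0.37). The lysosomal iron channel Mcoln1 rose by 0.30 log2 units (adjusted p = 0.0496), and did not pass when any library but siControl plus DFO replicate 1 was left out (adjusted p from 0.0871 to 0.155) and under 7 of 11 other settings.

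The ferritin subunits were the most abundant iron genes. Fth1, the ferroxidase heavy chain, was at 1333, 1286 and 1323 FPKM in siControl and 945, 992 and 973 FPKM with DFO (log2 fold change -0.44, standard error 0.10, adjusted p = 0.00871). Ftl1, the light chain, was at 835, 930.4 and 957 and then 726, 740.3 and 655 FPKM (log2 fold change -0.36, standard error 0.11, adjusted p = 0.0238). Both fell in every DFO library, by less than 2-fold. Ftl1 no longer passed without siControl replicate 2 (adjusted p = 0.077), siControl replicate 3 (0.0815) or siControl plus DFO replicate 3 (0.0915). Ferritin genes have many processed pseudogenes, to which reads could also be assigned. Ncoa4, the cargo receptor that takes ferritin to the lysosome, went from 6.46, 6.19 and 6.02 to 8.70, 8.31 and 7.52 FPKM (log2 fold change 0.39, standard error 0.12, adjusted p = 0.0265), and it did not pass in the fit over all 12 libraries (adjusted p = 0.134) and without siControl replicates 2 or 3 or siControl plus DFO replicates 1 or 2 (adjusted p from 0.0683 to 0.0835). The iron chaperones Pcbp1 (0.10, adjusted p = 0.27) and Pcbp2 (0.01, adjusted p = 0.925) did not pass the test. Of the sensors, Ireb2 (IRP2) rose from 27.5, 22.7 and 26.1 to 38.5, 34.3 and 36.3 FPKM (log2 fold change 0.52, standard error 0.10, adjusted p = 0.0026) and Aco1 (IRP1, also the cytosolic aconitase) fell from 18.2, 16.9 and 16.6 to 10.9, 13.2 and 10.2 FPKM (log2 fold change -0.59, standard error 0.12, adjusted p = 0.00362). Fbxl5, the ligase that removes IRP2, was at 31.6, 27.4 and 29.97 and 26.2, 24.5 and 28.2 FPKM (-0.17, adjusted p = 0.145). The ferroxidase Cp fell (-0.63, adjusted p = 0.000489), and the exporter Slc40a1 (ferroportin) did not reach the minimum. Cdc42bpa, an IRE-bearing kinase transcript, rose (0.38, adjusted p = 0.00548), while Cdc14a (-0.15, adjusted p = 0.529) did not pass. Epas1, Alas2 and Ftmt were listed at 0.

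**Figure D2:**
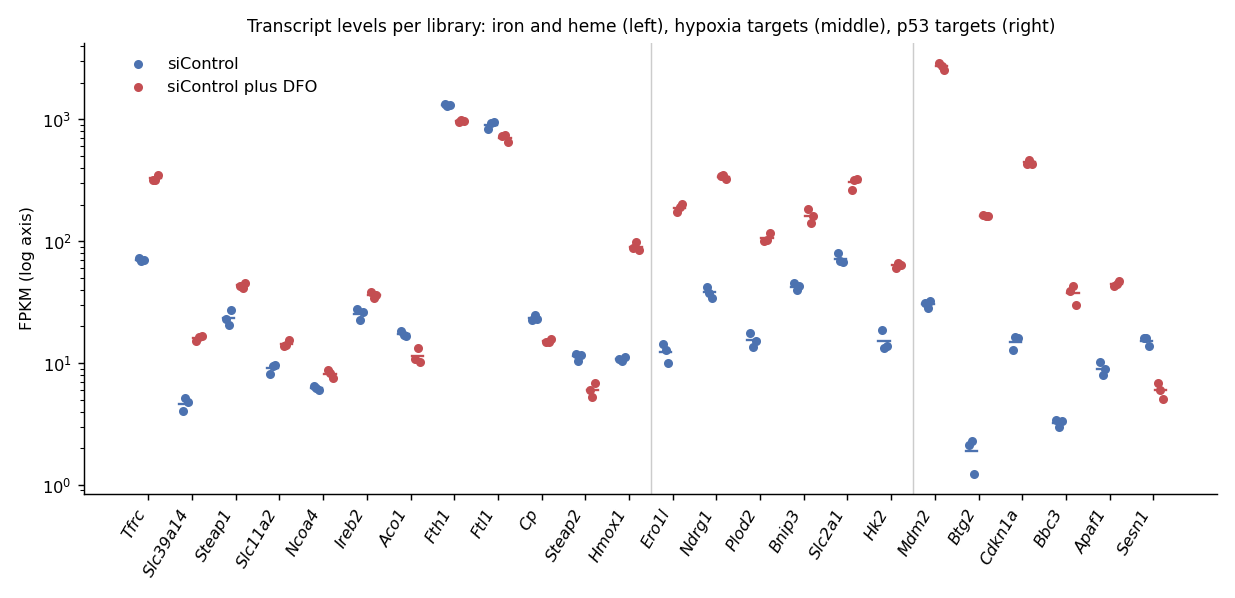
FPKM on a log axis of 24 named genes, with 1 point per library (blue siControl, red siControl plus DFO, n = 3 each) and a bar at the group mean. Points of the groups do not overlap for any gene shown. Only genes that passed the test are shown, which favours this, and groups did not overlap for 62.1% of all genes tested. The step is smallest for Ftl1 and Ncoa4 among the iron genes and largest for Mdm2 and Btg2 among the p53 targets.

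Genes of iron-sulfur cluster assembly and heme moved unevenly. Of 41 tested, 6 rose, 10 fell and 25 did not pass, with 4 called higher, 3 called lower and a median of -0.05. As shares of the list, 9.76% called higher and 7.32% called lower lay close to those of all genes (10.9% and 7.7%). Hmox1, which opens the heme ring and frees its iron, rose most, from 10.7, 10.4 and 11.1 to 88.5, 98.7 and 84.3 FPKM (log2 fold change 3.06, standard error 0.086, adjusted p = 3.29e-07). Cpox, a late enzyme of heme synthesis, went from 19.3, 26.6 and 21.9 to 83.5, 85.7 and 85.2 FPKM (log2 fold change 1.92, standard error 0.12, adjusted p = 7.27e-06). Hspa9, the mitochondrial HSP70 that also serves cluster transfer, rose (1.11, adjusted p = 1.83e-05). Nfs1, the desulfurase that supplies sulfur, fell from 8.56, 12 and 8.50 to 3.56, 3.30 and 3.20 FPKM (log2 fold change -1.49, standard error 0.17, adjusted p = 0.000205). The list thus held called genes in both directions at each of assembly and heme synthesis.

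The oxygenases that use iron and 2-oxoglutarate were mostly higher. Of 32 tested 20 rose, 3 fell and 9 did not pass, with a median of 0.57. Among all genes 27.7% rose and 25.6% fell. Called were 7 higher (21.9% against 10.9% of all genes) and 1 lower (3.12% against 7.7%). The list shares members with the hypoxia targets below, Plod2 and Kdm3a among them, so the 2 lists are not separate. Among 23 histone and nucleic acid demethylases 15 rose and 1 fell. Plod2, the lysyl hydroxylase of collagen, went from 17.6, 13.6 and 15.05 to 100.2, 103 and 117 FPKM (log2 fold change 2.79, standard error 0.11, adjusted p = 1.21e-06). The histone demethylases Kdm3a (1.82, adjusted p = 2.08e-06) and Kdm6b (1.72, adjusted p = 8.37e-05) rose, and P4ha3 (-1.87, adjusted p = 0.00075), the RNA demethylase Fto (-0.75, adjusted p = 0.000301) and the HIF hydroxylase Egln2 (-0.72, adjusted p = 0.000508) fell.

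HIF targets rose as a group. HIF subunits and Vhl moved by less than 2-fold, as Hif1a went from 50.1, 46.8 and 46.9 to 72.9, 68.4 and 73.4 FPKM (log2 fold change 0.58, standard error 0.071, adjusted p = 0.000289) while its partner Arnt fell (-0.48, adjusted p = 0.00319) and Vhl, part of the ligase that degrades HIF, rose (0.72, adjusted p = 0.000933). Of 38 hypoxia targets outside glycolysis 30 met the minimum, of which 27 rose and 1 fell. Called were 23 higher, or 76.7% against 10.9% of all genes, and 1 lower. The median was 1.64. Mitochondrial and mitophagy members all rose (5 of 5, range 1.28 to 2.26), as did all 11 tested genes of stress, folding and acid-base balance (1.23 to 3.94). Bnip3, a mitophagy receptor, went from 45.04, 39.7 and 42.7 to 183, 142 and 161 FPKM (log2 fold change 1.92, standard error 0.10, adjusted p = 4.29e-06). The exception was Lox, the collagen cross-linking oxidase, which fell from 409, 364 and 359.9 to 136, 132 and 169 FPKM (log2 fold change -1.38, standard error 0.11, adjusted p = 3.51e-05). Ero1l and Ndrg1 are members of this list and were among its largest rises.

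Glycolysis genes were also mostly higher. Of 20 genes tested 15 rose, 2 fell and 3 did not pass. Called higher were 7 (35% against 10.9% of all genes), and the median was 0.77. The glucose transporter Slc2a1 went from 80.1, 69.1 and 67.2 to 264, 321 and 327 FPKM (log2 fold change 2.07, standard error 0.11, adjusted p = 3.93e-06). Hk2, the hexokinase that opens the pathway, was at 18.6, 13.2 and 13.9 FPKM and then 60.7, 66.6 and 64.0 FPKM (log2 fold change 2.07, standard error 0.13, adjusted p = 9.33e-06), and Eno2 rose from 4.30, 6.12 and 3.48 to 24.0, 19.7 and 21.3 FPKM (log2 fold change 2.24, standard error 0.20, adjusted p = 5.52e-05). The muscle phosphofructokinase Pfkm fell (-0.35, adjusted p = 0.00634). Pdk3 was lower (-0.29, adjusted p = 0.0364), which did not pass when any of 5 libraries was left out (adjusted p from 0.0531 to 0.114).

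The promoters of these genes were read for the core of the hypoxia response element, since the HIF dimer binds it. This search was chosen after the values had been seen. The window ran from 250 bases before to 50 bases after each start site in RefSeq (GRCm38.p6), and 2 forms of the core were sought on both strands. Of 9152 tested genes with a window, 30.2% held ACGTG, whose matches include those of the palindrome with a further C in front. The form GCGTG was held by 57.5%. The first form was in 14 of 22 hypoxia targets with a window (63.6%) and in 12 of 20 glycolysis genes (60%). Counted per window, since these genes list more start sites, the shares were 48.4%, 46.9% and, for all genes, 26.2%. The second form was in 68.2% and 65% of these genes. The matches are a description of letters, not of binding. Windows of 30 bases with the core in capitals are shown for 4 called genes, read on the strand of the gene. Ndrg1 and Eno2 had no entry in the table.
Ero1l (Ero1a in RefSeq), chr14:45318619-45318648, minus strand: gcgcgcgccgctgCACGTccgcaggggagg
Bnip3, chr7:138909597-138909626, minus strand: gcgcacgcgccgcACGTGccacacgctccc
Slc2a1, chr4:119108696-119108725, plus strand: agtcccgccccggACGTGctccccaggccc
Hk2, chr6:82774664-82774693, minus strand: tagccacggaacaCACGTcccaactctggc

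Targets of p53 formed the list with the largest number of called rises, though not the largest share. That number also depends on how many members a list holds, and the lists were chosen with earlier results of these data known. The share was 76.7% for hypoxia targets outside glycolysis, 90.5% for inflammatory genes and 100% for the AP-1 and keratin lists. Of 48 genes 42 met the minimum, and of these 38 rose, 1 fell and 3 did not pass. Called were 32 higher (76.2% against 10.9% of all genes) and 1 lower, with a median of 2.29. For 3 members only the DFO libraries reached 0.5 FPKM, so that they could enter only as rises. Without them 35 of 39 rose, with a median of 2.24. All 6 feedback genes, all 7 growth arrest genes and all 11 apoptosis genes that were tested rose, against 27.7% of all genes. Btg2, an antiproliferative regulator, went from 2.11, 2.30 and 1.24 to 164, 159.9 and 161 FPKM (log2 fold change 6.39, standard error 0.20, adjusted p = 5.08e-07). Cdkn1a, the CDK inhibitor p21, was at 12.7, 16.2 and 16.1 FPKM and then 435, 467 and 433 FPKM (log2 fold change 4.89, standard error 0.10, adjusted p = 1.59e-07). Cd80, a co-stimulatory ligand, was at 0.210, 0.335 and 0 FPKM without DFO and 18.9, 19.1 and 17.52 FPKM with it, and is one of the 3 members that could enter only as rises. Eda2r, a death receptor of the TNF family, went from 5.31, 5.77 and 6.69 to 70.7, 68.5 and 70.7 FPKM (log2 fold change 3.55, standard error 0.10, adjusted p = 3.55e-07). Sesn1, a sestrin that restrains mTORC1, was the only member that fell and passed, from 16.01, 16.2 and 13.8 to 6.86, 6.03 and 5.07 FPKM (log2 fold change -1.35, standard error 0.14, adjusted p = 0.000129).

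The consensus p53 response element was sought in the same promoter windows, as 20 bases without a spacer and with up to 2 mismatches outside its fixed C and G. This search too was chosen after the values had been seen. It matched 41 of 9152 genes (0.448%) and 4 of 36 p53 targets with a window (11.1%), namely Ccng1, Cd80, Cdkn1a and Gtse1. Mdm2 had none in its window, which says only that these letters are not there. The elements of Cdkn1a and Ccng1, each with 1 mismatch, are shown with the element in capitals.
Cdkn1a, chr17:29090923-29090952, plus strand: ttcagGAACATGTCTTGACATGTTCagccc
Ccng1, chr11:40755457-40755486, minus strand: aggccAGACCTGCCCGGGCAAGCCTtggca

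Cell death genes of the BCL2 family and the caspases did not move one way. Of 25 tested 9 rose, 6 fell and 10 did not pass, with a median of 0.09, which was -0.03 after quantile normalization. Bbc3 (PUMA), a BH3-only killer and p53 target, went from 3.39, 2.98 and 3.36 to 39.1, 42.8 and 30.05 FPKM (log2 fold change 3.47, standard error 0.15, adjusted p = 1.47e-06). Apaf1, the core of the apoptosome, went from 10.2, 7.97 and 8.87 to 43.2, 44.3 and 47.2 FPKM (log2 fold change 2.31, standard error 0.11, adjusted p = 2.15e-06). The inflammatory caspase Casp4 rose (2.04, adjusted p = 0.000581). Against these, the effector Bak1 fell from 50.2, 42.3 and 43.8 to 19.8, 19.5 and 19.6 FPKM (log2 fold change -1.203, standard error 0.087, adjusted p = 1.87e-05), Casp12 fell (-1.57, adjusted p = 0.000179), and Bmf, another BH3-only gene, was at 2.77, 2.21 and 2.67 FPKM and then 0.137, 0.117 and 0 FPKM. Bmf reached 0.5 FPKM only in siControl and could enter only as a fall, without which 5 of 24 fell. Pro-apoptotic members that passed were split evenly, with 6 higher and 6 lower of 18, and anti-apoptotic members that passed were all higher, 3 of 7.

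Genes of the ATF4 pathway, which answers amino acid shortage and other stress, were higher in nearly all members. Of 43 tested 40 rose and 1 fell, 20 were called higher (46.5% against 10.9% of all genes) and the median was 0.99. All 12 tRNA synthetases rose, by 0.43 to 1.19 log2 units. Ppp1r15a (GADD34), which restores translation by reversing eIF2α phosphorylation, went from 8.36, 6.66 and 6.51 to 330.3, 348 and 268 FPKM (log2 fold change 5.44, standard error 0.13, adjusted p = 2.69e-07). Slc7a11, the cystine importer that feeds glutathione, went from 1.55, 1.35 and 1.198 to 16.8, 17.1 and 18.4 FPKM (log2 fold change 3.59, standard error 0.15, adjusted p = 1.37e-06). Atf3, a stress-induced transcription factor, was at 0 in each siControl library against 3.37, 1.43 and 2.58 FPKM with DFO, so that it could enter only as a rise. Psat1, of serine synthesis, was the member that fell (-0.47, adjusted p = 0.000925). Of 24 genes of the unfolded protein response 16 rose, 2 fell and 6 were called higher (25% against 10.9% of all genes), with a median of 0.51. Hspa5 (BiP), the main chaperone of the endoplasmic reticulum, was at 372, 402 and 397 FPKM and then 1662, 1878 and 1662 FPKM (log2 fold change 2.15, standard error 0.10, adjusted p = 2.65e-06). Dnajb9 (2.71, adjusted p = 9.4e-07) and the sensor Atf6 (1.69, adjusted p = 4.17e-06) rose as well. Both falls, in Derl2 (-0.45, adjusted p = 0.0333) and Dnajb11 (-0.28, adjusted p = 0.0301), did not pass without siControl replicate 2 (adjusted p = 0.105 for each).

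Antioxidant genes of the NRF2 pathway were lower more often than higher. Of 28 tested 8 rose, 14 fell and 6 did not pass, with a median of -0.27. Among all genes 27.7% rose and 25.6% fell. Called were 3 higher (10.7% against 10.9% of all genes) and 4 lower (14.3% against 7.7%). Of 14 redox enzymes 10 fell and 2 rose. Nqo1, a quinone reductase used as an NRF2 readout, fell from 38.8, 41.8 and 46.3 to 13.6, 16.2 and 13.2 FPKM (log2 fold change -1.55, standard error 0.11, adjusted p = 1.7e-05). The glutathione transferases Gstm1, from 57.5, 59.9 and 59.9 to 15.1, 11.4 and 12.1 FPKM (log2 fold change -2.20, standard error 0.11, adjusted p = 3.13e-06), and Mgst1 (-2.19, adjusted p = 0.00454) fell. Those that rose included Slc7a11, an ATF4 target too, Gss (1.17, adjusted p = 0.000214) and Osgin1 (1.17, adjusted p = 0.000499).

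Immediate early and immune genes, many of them near 0 in siControl, were higher with DFO. All 21 genes of the AP-1 and early growth response list rose and were called, against 10.9% of all genes called higher (median 3.42). Of these, 2 reached 0.5 FPKM only with DFO, and the median over the other 19 was 3.29. Fosl1 went from 9.22, 9.51 and 8.60 to 265, 295 and 265 FPKM (log2 fold change 4.90, standard error 0.080, adjusted p = 2.33e-08) and Fos from 0.671, 0.267 and 0.860 to 32.1, 33.5 and 31.6 FPKM (log2 fold change 5.65, standard error 0.33, adjusted p = 5.81e-06). Both encode AP-1 subunits, as does Fosb, which was at 0.180, 0.0718 and 0.154 FPKM and then 5.26, 6.49 and 5.28 FPKM and could enter only as a rise. Of 28 inflammatory genes 21 met the minimum, 19 rose and 1 fell, with a median of 3.15. All 19 were called higher (90.5% against 10.9% of all genes). Without the 3 that reached the minimum only with DFO, 16 of 18 rose with a median of 2.06. These 16 were called (88.9%, against 9.6% of all genes that reached the minimum in both groups). Il6 was listed at 0 in siControl replicates 2 and 3 and at 0.347 FPKM in replicate 1, against 9.85, 12.8 and 7.09 FPKM with DFO. Cxcl5 was the inflammatory gene that fell (-0.52, adjusted p = 0.021), which did not pass when any of 4 libraries was left out (adjusted p from 0.0512 to 0.0719).

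Of 29 interferon response genes 24 met the minimum, and 19 rose, 1 fell and 4 did not pass, with a median of 1.98. Of the 24, 17 were called higher (70.8% against 10.9% of all genes). For 6 of the 24 only the DFO libraries reached 0.5 FPKM, and over the other 18 there were 13 rises and a median of 1.201. Of these 18, 11 were called higher (61.1%, against 9.6% of all genes that reached the minimum in both groups). Oasl1, an antiviral OAS-like protein, was at 0, 0.132 and 0.141 FPKM and then 8.89, 11.1 and 11.8 FPKM, and Mx2, an antiviral GTPase, was at 0.287, 0 and 0.245 FPKM and then 11.4, 13.2 and 8.91 FPKM. Both reached 0.5 FPKM only with DFO. Ifit2 fell slightly from a higher level, 31.1, 33.5 and 33.9 to 26.2, 24.7 and 22.7 FPKM (log2 fold change -0.42, standard error 0.086, adjusted p = 0.00407). Of 6 microglia markers, summed at 10.1 to 11.9 FPKM in siControl and 1.04 to 1.80 FPKM with DFO, Tmem119 made up most of the sum and met the minimum. P2ry12 was at 0, while Aif1 and Cx3cr1 were at 0 in siControl and at up to 0.381 and 0.512 FPKM with DFO. The part of other cell types in these rises was not tested. Of 18 genes of keratins and epithelial stress 6 met the minimum, all of them called higher (against 10.9% of all genes). For 2 of these 6 only the DFO libraries reached 0.5 FPKM. The epithelial marker Epcam was at 0, and the summed epithelial markers were at 4.56 to 5.54 FPKM in siControl and 1.299 to 1.90 FPKM with DFO, mostly from Cdh1. Areg, an EGF receptor ligand, was at 0.310, 0.247 and 0 FPKM and then 11.4, 10.5 and 9.5 FPKM, and could enter only as a rise.

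**Figure D3:**
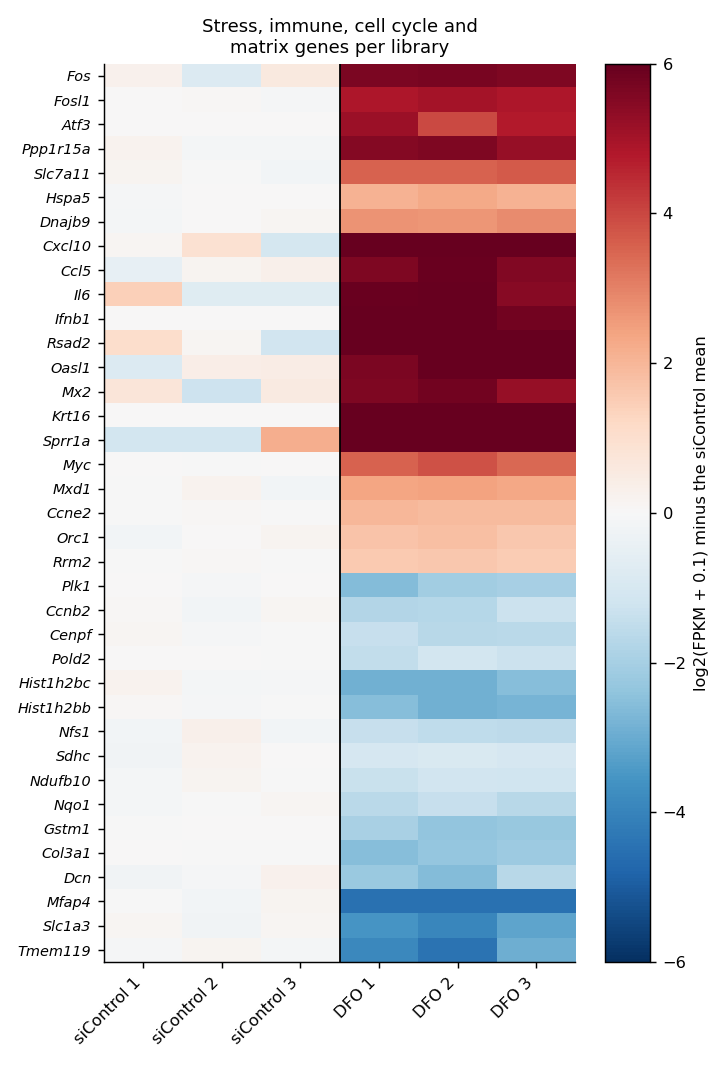
Colour gives log2(FPKM + 0.1) of each of the 6 libraries minus the mean of the siControl libraries, for 37 genes named in the text. Values above 6 are drawn at the end of the scale, and the 3 DFO libraries share the direction of change for every gene shown. Only genes that passed the test are shown, so this agreement follows from how they were chosen.

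Cell cycle genes did not move one way. Of 45 mitosis genes 22 fell, 8 rose and 15 did not pass, with 7 called lower (15.6% against 7.7% of all genes). Plk1, the kinase that drives mitotic entry, fell from 36.7, 34.8 and 36.9 to 5.85, 8.41 and 8.91 FPKM (log2 fold change -2.23, standard error 0.16, adjusted p = 1.6e-05). Ccnb2, a mitotic cyclin (-1.57, adjusted p = 0.000116), and the kinetochore protein Cenpf (-1.55, adjusted p = 8.64e-06) also fell, while the condensin Smc4 rose (0.65, adjusted p = 0.000686). Of 45 DNA replication genes 15 rose, 11 fell and 19 did not pass, with a median of 0.11, which was -0.01 after quantile normalization. Licensing genes rose in 9 of 13, led by Orc1 of the origin complex, from 16.1, 18.3 and 20.5 to 60, 64.5 and 55.7 FPKM (log2 fold change 1.72, standard error 0.11, adjusted p = 8.83e-06), and by Cdt1 (1.04, adjusted p = 7.06e-05). Rrm2, the iron-bearing subunit of ribonucleotide reductase, went from 44.3, 46.6 and 43.4 to 132, 136 and 127 FPKM (log2 fold change 1.55, standard error 0.069, adjusted p = 1.68e-06). Of fork and polymerase genes 8 of 25 fell and 4 rose. Pold2, a subunit of DNA polymerase delta, fell from 36.1, 36.2 and 35.3 to 12.6, 16.7 and 14.8 FPKM (log2 fold change -1.29, standard error 0.11, adjusted p = 4.19e-05), Gins2 fell (-0.98, adjusted p = 0.000877), and so did the thymidine kinase Tk1 (-0.91, adjusted p = 0.00106).

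Among 25 G1 cyclins, CDKs and E2F or MYC genes 10 rose and 8 fell. Myc went from 18.3, 17.4 and 18.1 to 212, 258 and 196 FPKM (log2 fold change 3.61, standard error 0.11, adjusted p = 3.55e-07). Its antagonists of the MXD family differed among themselves, as Mxd1 rose from 3.11, 3.64 and 2.78 to 16.6, 17.45 and 16.05 FPKM (log2 fold change 2.37, standard error 0.14, adjusted p = 5.68e-06) and Mxd3 (-2.13, adjusted p = 0.000684) and Mxd4 (-1.28, adjusted p = 0.000312) fell. Ccne2, a cyclin of S-phase entry, went from 8.28, 8.86 and 8.31 to 34.0, 31.6 and 32.1 FPKM (log2 fold change 1.93, standard error 0.086, adjusted p = 1.76e-06). The CDK4/6 inhibitor Cdkn2c fell (-1.17, adjusted p = 8.01e-05).

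Histone genes of the numbered clusters fell almost without exception. Of 61 tested 59 fell and 2 did not pass, 53 were called lower (86.9% against 7.7% of all genes), and the median was -1.67. These genes are made for S phase and many are near copies of each other, so that reads may have been shared out between them. Hist1h2bc was at 277, 218 and 227 FPKM in siControl and 31.8, 31.9 and 40.3 FPKM with DFO (log2 fold change -2.79, standard error 0.13, adjusted p = 1.94e-06). Hist1h2bb (-2.73, adjusted p = 6.87e-07), Hist1h2bm (-2.80, adjusted p = 8.3e-05) and Hist1h2bk (-2.69, adjusted p = 2.33e-05) were the other histone genes among the 6 abundant falls.

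Mitochondrial genes that passed were mostly lower, by small amounts. For comparison, 25.6% of all genes fell and 7.7% were called lower. Of 22 genes of the tricarboxylic acid cycle 12 fell and 2 rose, each by less than 2-fold, with a median of -0.32. Idh2 (-0.83, adjusted p = 6.28e-05), Ogdh (-0.83, adjusted p = 0.000751) and Sdhc, an anchor of complex II (-0.99, adjusted p = 0.000324), fell most. Dld, a subunit shared by several dehydrogenases, rose (0.63, adjusted p = 0.000302). Of 77 nuclear-encoded subunits of oxidative phosphorylation 33 fell and 4 rose, with a median of -0.37, and 1 (1.3%) was called lower. That 1 was Ndufb10 of complex I, which fell from 114, 142 and 122 to 48.8, 55.5 and 54.1 FPKM (log2 fold change -1.25, standard error 0.10, adjusted p = 2.99e-05). Complex I had 15 falls of 36 and complex V had 8 of 16. Of 77 mitochondrial ribosomal proteins 27 fell and 3 rose (median -0.25), with Mrpl41 (-1.23, adjusted p = 0.000746) and Mrps21 (-1.199, adjusted p = 2.95e-05) among the 4 called lower (5.19%). Cytosolic ribosomal proteins moved less, 9 of 77 fell and 1, the p53-regulated Rps27l (0.74, adjusted p = 0.00146), rose.

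Mitophagy and autophagy genes were more often higher. Of 37 tested 21 rose, 7 fell and 9 did not pass, with a median of 0.38. Called higher were 5 (13.5%, close to the 10.9% of all genes). Ulk1, the kinase that starts autophagy, went from 4.46, 4.08 and 3.59 to 23.8, 27.4 and 22.4 FPKM (log2 fold change 2.57, standard error 0.13, adjusted p = 3.13e-06), and the cargo receptor Sqstm1 (p62) went from 130.2, 140.2 and 138 to 605, 641 and 565.12 FPKM (log2 fold change 2.15, standard error 0.083, adjusted p = 9.73e-07). The mitophagy receptor Fundc1 (-0.79, adjusted p = 0.00617) and Fkbp8 (-0.68, adjusted p = 0.000245) fell.

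Collagens and matrix genes fell. Of 32 tested 20 fell and 3 rose, 13 were called lower (40.6% against 7.7%), and the median was -0.91. Of 12 collagens 9 fell and 3 did not pass. Col3a1, of type III collagen, went from 297, 286 and 283 to 49.2, 58.2 and 63.8 FPKM (log2 fold change -2.34, standard error 0.10, adjusted p = 1.52e-06), and the proteoglycan Dcn fell (-2.16, adjusted p = 0.000276). Mfap4, a microfibril protein, was at 2.15, 1.90 and 2.45 FPKM in siControl and was listed at 0 in all DFO libraries, so that it could enter only as a fall. Cyr61, a matricellular target of YAP, went the other way, from 19.3, 20.7 and 19.4 to 219, 268 and 264 FPKM (log2 fold change 3.65, standard error 0.094, adjusted p = 2.72e-07).

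Other large falls named by rule were of low or moderate genes. Slc1a3 (GLAST), a glutamate transporter listed as an astrocyte marker, fell from 45.6, 36.1 and 44.7 to 3.49, 2.64 and 4.65 FPKM (log2 fold change -3.54, standard error 0.20, adjusted p = 5.38e-06). The 6 astrocyte markers together were at 36.5 to 46.0 FPKM in siControl and 3.31 to 5.48 FPKM with DFO, a sum that was mostly Slc1a3. Aqp4 was at 0, Aldh1l1 was at 0.285 to 0.354 FPKM and then 0.535 to 0.839 FPKM, and Gfap was at 0 in siControl and at up to 0.485 FPKM with DFO. Gas1, a growth arrest protein and hedgehog co-receptor, fell from 76.2, 64.2 and 65.3 to 9.81, 10.8 and 10.6 FPKM (log2 fold change -2.71, standard error 0.094, adjusted p = 6.74e-07). Tmem119 was at 10.3, 11.8 and 9.98 FPKM and then 0.638, 0.407 and 1.29 FPKM (log2 fold change -3.74, standard error 0.35, adjusted p = 6.71e-05), and the corepressor Tle2 fell (-3.62, adjusted p = 9.89e-05). Ogn, a small proteoglycan (-3.59, adjusted p = 6.31e-05), and Ly6c1, a GPI-anchored surface protein (-3.59, adjusted p = 0.000181), fell as well. Lrrc17 was at 2.08, 2.04 and 4.79 FPKM and then 0, 0 and 0.136 FPKM, and 3110039M20Rik fell (-3.79, adjusted p = 0.0102). Gm19705 was listed at 0 in all DFO libraries. Lrrc17, Gm19705 and Dynlt1f reached the minimum only in siControl and could enter only as falls. Dynlt1f, a dynein light chain with near copies in the genome, had 0.000149, 9.61e-05 and 9.94e-05 FPKM with DFO and 3.01, 4.29 and 4.67 FPKM in siControl, so its change is uncertain.

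**Figure D4:**
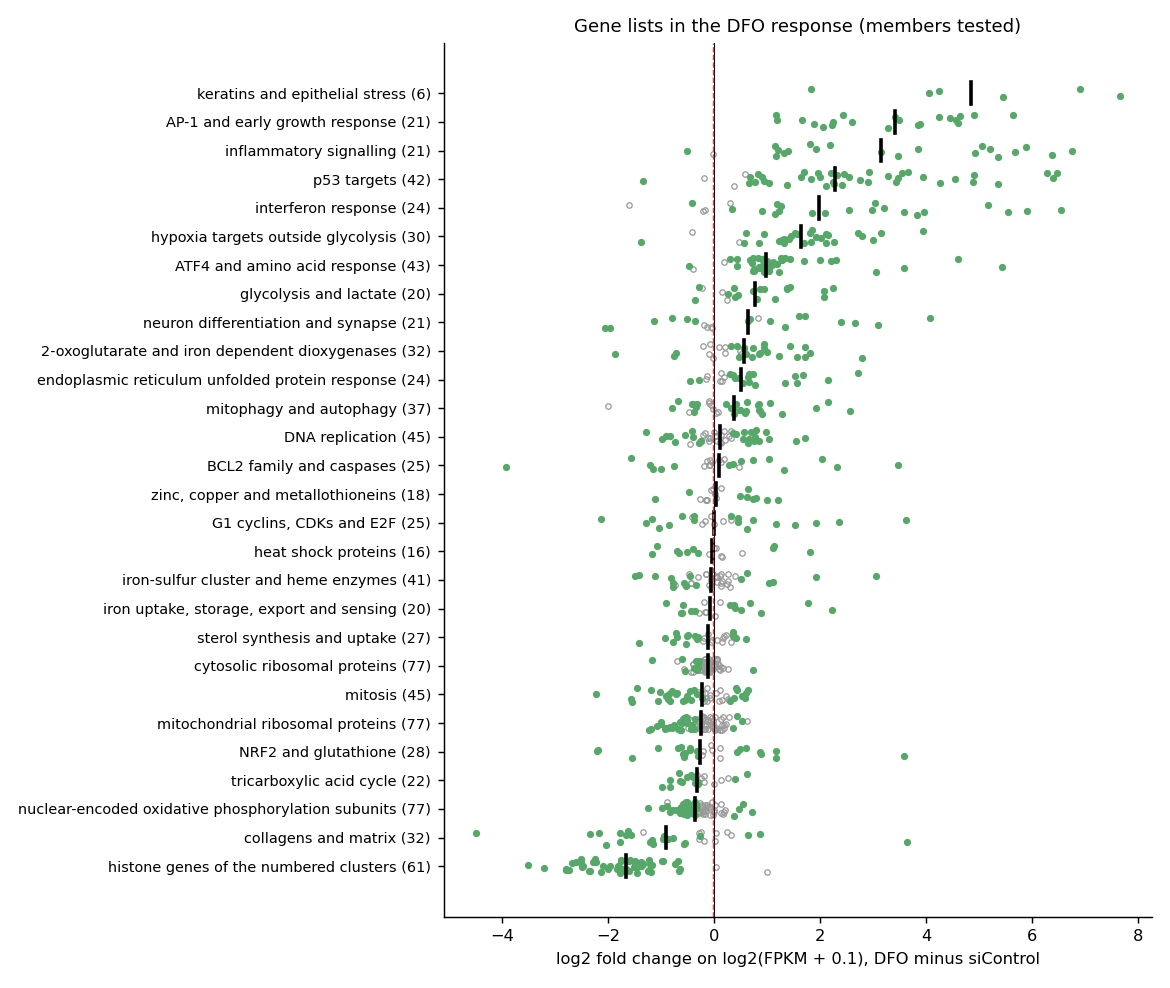
Each point is 1 tested member of a gene list, placed by its log2 fold change with DFO, filled where the adjusted p was below 0.05. Black bars are list medians, from -1.67 for histone genes to 4.84 for the 6 tested genes of keratins and epithelial stress, and the dashed line is the median of all genes at -0.02.

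Whether the response recurred was asked in the 6 libraries with Ncoa4 siRNA, which share none with the comparison above. Ncoa4 was at 0.871 ± 0.0929 FPKM in siNCOA4 and 6.22 ± 0.221 FPKM in siControl (mean ± SD, n = 3). Over all 12 libraries 11924 genes met the minimum. There DFO changed 5095 genes at an adjusted p below 0.05 (42.7%), 2756 higher (23.1%) and 2339 lower (19.6%). Calls numbered 1362 (11.4%), 905 higher (7.59%) and 457 lower (3.83%). Of the 1245 genes called higher in control cells 1224 had the same sign in siNCOA4 cells, 1060 passed and 739 were called there. Of the 880 called lower the numbers were 853, 627 and 334. The genes were chosen by their values in control cells, so their smaller medians in siNCOA4 cells, 1.19 against 1.62 and -0.90 against -1.39, are given with no test.

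The difference between the DFO responses was tested as an interaction. It had an adjusted p below 0.05 for 250 genes (2.1%), and an unadjusted p below 0.05 for 2167 (18.2%). The response was more negative in siNCOA4 cells for 170 (1.43%) and more positive for 80 (0.671%). For 162 genes with a rise that passed in control cells, the change was smaller or reversed in siNCOA4 cells. The same held for 67 genes with a fall that passed. Of the 250 genes, 43 had changes of opposite sign in control and siNCOA4 cells. By smallest p the genes were Eda2r, Inhba, Cdkn1a, Ankrd1 and Tef. Cdkn1a rose by 4.89 log2 units in control cells and 2.64 in siNCOA4 cells (difference -2.24, adjusted p = 0.000874). Of the markers, Mdm2 (-1.51, adjusted p = 0.00397) and Ero1l (-0.84, adjusted p = 0.0322) differed. Tfrc rose by 2.22 and 1.74 (difference -0.48, adjusted p = 0.0649, but 0.0444 without siNCOA4 plus DFO replicate 3). Ndrg1 rose by 3.16 and 2.84 (difference -0.32, adjusted p = 0.469). Among lists, p53 targets had 9 genes with a difference of 44 tested, inflammatory signalling had 8 of 21, interferon response 6 of 27, heat shock 4 of 16 and hypoxia targets 2 of 30. Over the 27 interferon genes that met the minimum across 12 libraries, the median was 1.265 in control cells and 1.425 in siNCOA4 cells. Over the 24 that met it in the 6 libraries above, the median in control cells was 1.98. The added members met the minimum only through siNCOA4 libraries, so the pair of medians does not compare the size of the interferon responses. The median of the 21 inflammatory genes was 3.15 in control cells and 1.57 in siNCOA4 cells. The count of 250 fell to between 76 and 147 without 1 of 8 libraries, lowest without siControl plus DFO replicate 1, and the difference for Ero1l did not pass without any of 9 libraries (adjusted p from 0.0555 to 0.0807).

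**Figure D5:**
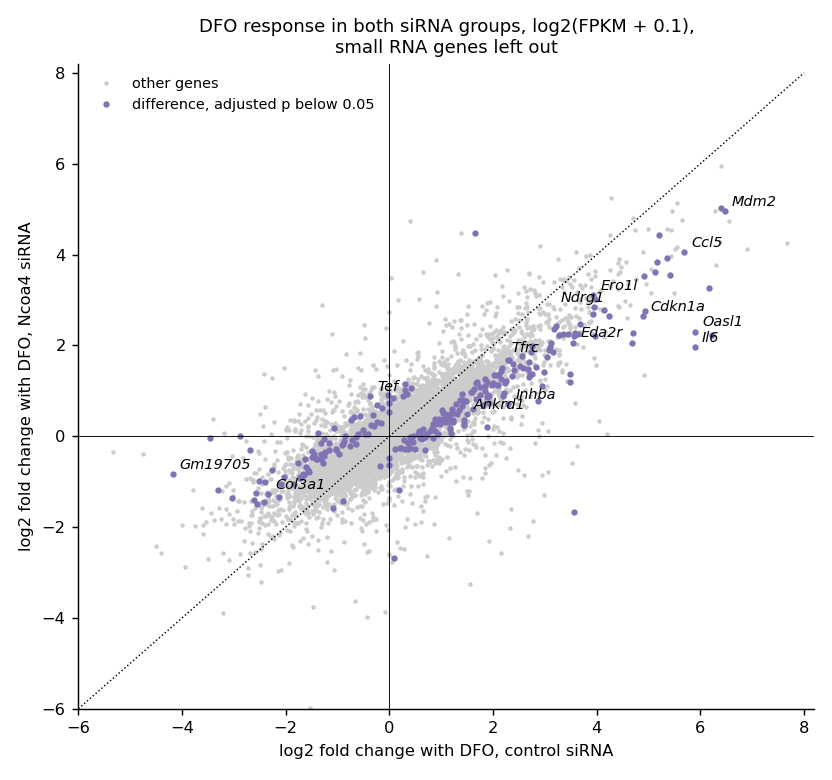
Each point is a gene, small RNA genes left out, with its log2 fold change with DFO under control siRNA (horizontal) and under Ncoa4 siRNA (vertical). Purple points had an adjusted p below 0.05 for the difference, the dotted line marks equal responses, and Cdkn1a at 4.89 and 2.64 lies below it.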

How the data were processed

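Values of 12 total RNA libraries were used as deposited by the authors, as FPKM per gene and library, with replicates not pooled. The submitters' processing notes name Trimmomatic 0.33, FastQC, HISAT2 2.1.0, featureCounts, edgeR and the build mm10, without roles. The tool that made the FPKM and its rule for reads that match several genes are not given in the sources used here. Without counts, relative depth was read from the steps between low FPKM values, and no counting interval is given. Of 24347 entries, 4 that shared a name were left out.

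The log2(FPKM + 0.1) values were tested with limma 3.58.1 in R 4.3.3, with a mean-variance trend (4 residual and 3.95 prior degrees of freedom), and p-values were adjusted by Benjamini and Hochberg over all genes tested. The siNCOA4 response and the interaction came from a means model over the 12 libraries. Fits were tested on simulated data.

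The members and gene lists were chosen with earlier results of these data known. Genes named were the 4 markers, all iron genes, the 10 largest rises and falls with a mean of at least 1 FPKM, the 6 largest each way at 20 FPKM or more (small RNA genes left out of both), in each list the 3 largest rises and falls that passed, and the 5 smallest interaction p-values. Others were chosen after their values were seen, and some genes that meet these rules are not reported here. Sequences came from GENCODE M21 and RefSeq, read with Python 3.11.15. Alternatives were other pseudocounts, minima, scalings and moderation, the model over 12 libraries, a replicate block, and leaving out each library.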

Additional observations from a re-analysis of the deposited data

Results flagged for a closer look

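For 22 of the named genes the DFO response differed between cells with Ncoa4 siRNA and with control siRNA. The test was an interaction term with an adjusted p below 0.05 (limma over 12 libraries). Eda2r, Inhba, Cdkn1a, Ankrd1 and Tef were named for their small interaction p, so they pass by selection. Most others were named for large changes in control cells, which favours smaller responses under Ncoa4 siRNA. The count of 22 is therefore no measure of how common differences were. Over all 11924 genes tested, 250 (2.1%) passed. Differences are of log2 fold changes, siNCOA4 minus control, and means are given ± SD with n = 3.

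Among p53 targets Cdkn1a (-2.24, adjusted p = 0.000874) was at 15.03 ± 1.98 FPKM without and 445 ± 19.2 FPKM with DFO under control siRNA, and 53.2 ± 2.89 and 340.1 ± 83.6 FPKM under Ncoa4 siRNA. Mdm2 (-1.51, adjusted p = 0.00397) was at 30.7 ± 2.05 FPKM without and 2726 ± 185 FPKM with DFO under control siRNA, and 50.4 ± 2.46 and 1597 ± 362 FPKM under Ncoa4 siRNA. Eda2r (-1.49, adjusted p = 0.000874) was at 5.92 ± 0.700 FPKM without and 70.0 ± 1.26 FPKM with DFO under control siRNA, and 17.9 ± 1.18 and 75.0 ± 5.44 FPKM under Ncoa4 siRNA. Btg2 (-1.38) and Ero1l (-0.84), a hypoxia target, also had a smaller rise, and the mean of Ero1l with DFO was 189 and 195 FPKM against 12.3 and 22.5 FPKM without.

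Secreted and immune genes with a smaller rise under Ncoa4 siRNA were Inhba (-1.59), Ccl5 (-1.63), Sema3c (-0.81), Il6 (-3.93) and Oasl1 (-3.60). The last pair rested on siControl levels near 0, with siNCOA4 means of 0.702 FPKM for Il6 and 0.904 FPKM for Oasl1. Ifit2 (0.47) fell in control cells and was at 28.1 ± 1.05 and 29.1 ± 1.37 FPKM under Ncoa4 siRNA.

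Among the rest, Ankrd1 (-1.02), Cyr61 (-1.39), Mxd1 (-1.05), Ccne2 (-1.04) and the chaperones Dnajb1 (-1.13) and Dnajb4 (-0.72) had a smaller rise, and Hsph1 (-0.50) had a larger fall. Col3a1 (1.07) had a smaller fall. Tef (1.26, adjusted p = 0.000874), a PAR bZIP factor, was at 21.0 ± 1.22 FPKM without and 16.2 ± 0.962 FPKM with DFO under control siRNA, and 8.87 ± 0.670 and 16.5 ± 0.666 FPKM under Ncoa4 siRNA. Mcoln1 (0.72), the lysosomal channel, was at 10.9 ± 0.418 FPKM without and 13.4 ± 1.37 FPKM with DFO under control siRNA, and 10.1 ± 0.842 and 20.6 ± 2.39 FPKM under Ncoa4 siRNA. Gm19705 (3.35) was listed at 0 in all siControl plus DFO libraries, so its difference depends on the pseudocount.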

How the results depend on the processing

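The count of 2125 called genes lay between 1564 and 2393 under the alternatives that kept the 2-fold threshold, and between 2051 and 2136 when 1 library was left out. With an adjusted p below 0.05 alone it was 6092, of which 3162 were higher and 2930 lower, since no fold was required. With a pseudocount of 1 the lower genes numbered 580, and the cause was not tested. Higher genes made up 54.1% (quantile normalization) to 62.9% (pseudocount of 1) of the calls, against 58.6%. The difference of the DFO responses passed for 171 to 274 genes under other settings and for 76 to 288 when 1 library was left out.

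The deviations of same-numbered libraries from their group means correlated at -0.09, -0.27 and -0.01. Those of libraries with different numbers correlated at -0.27 to 0.32. The deviations of 3 libraries sum to 0 by construction, so these values do not settle whether libraries were paired. A replicate block gave 2095 calls in control cells, 1351 in siNCOA4 cells and 171 differences. Ncoa4 (adjusted p = 0.0522) and Ftl1 (0.0567) did not pass with the block.

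Some values near 0 changed sign, and the cause was not tested. Pcbp2 was at -0.021 after scaling to an equal sum over genes that are not small RNA genes, and at -0.043 to 0.078 with 1 library left out. Keeping all genes above 0 in any library moved the list medians to 0.17 for iron genes, 0.077 for G1 genes and -0.19 for HIF subunits. Quantile normalization moved them to -0.0069 for DNA replication and -0.029 for BCL2 genes, and the equal sum to -0.0034 for zinc and copper genes. With 1 library left out they ran from -0.068 to 0.0047 for iron-sulfur and heme genes, from -0.069 to 0.060 for G1 genes, from -0.19 to 0.0049 for sterol genes and from -0.017 to 0.10 for zinc and copper genes. The keratin median of 4.84 was 1.82 when all genes above 0 in any library were kept, which adds low members. Depth limits low genes: a value of 0 does not show that a transcript is absent.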

Other observations

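Genes of neuron differentiation and axon guidance moved both ways. Of 50 listed 21 met the minimum, with 10 rises, 6 falls and 8 called higher (38.1% against 10.9% of all genes). Without 1 member that reached 0.5 FPKM only with DFO, 7 of 20 were called and the median was 0.31 rather than 0.64. Most passing members were among neurotrophins and guidance genes (9 rises and 5 falls of 17). Epha2, an ephrin receptor, went from 7.16, 5.85 and 6.63 to 103, 122 and 111 FPKM (log2 fold change 4.08, standard error 0.10, adjusted p = 2.72e-07). Sema3c rose (2.39, adjusted p = 1.08e-06), while its relative Sema3a fell from 11.8, 10.1 and 10.7 to 2.80, 1.96 and 2.92 FPKM (log2 fold change -2.06, standard error 0.18, adjusted p = 5.23e-05). Nrp2, a semaphorin receptor, fell from 44.8, 38.8 and 40.6 to 8.60, 10.4 and 12.97 FPKM (log2 fold change -1.97, standard error 0.15, adjusted p = 2.36e-05), and Sema5a fell too (-1.14, adjusted p = 0.000263).

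Heat shock genes also moved both ways, with 3 rises and 7 falls of 16. The J-domain co-chaperone Dnajb1 went from 22.7, 28.2 and 28.1 to 96.4, 93.5 and 85.5 FPKM (log2 fold change 1.80, standard error 0.10, adjusted p = 5.72e-06). Hspa8, the constitutive HSP70, fell from 969, 993 and 1053 to 465, 436 and 444 FPKM (log2 fold change -1.17, standard error 0.093, adjusted p = 3.04e-05). Of 27 sterol genes 11 fell and 5 rose. The regulator Srebf2 fell (-0.78, adjusted p = 0.00041) while Srebf1 rose (0.60, adjusted p = 0.0123). Of 18 genes of zinc and copper handling 7 rose and 2 fell. The metallothionein Mt2 went from 53.3, 57.2 and 68.6 to 111, 116 and 128 FPKM (log2 fold change 0.99, standard error 0.11, adjusted p = 0.000154), the copper transporter gene Slc31a2 rose (1.203, adjusted p = 0.000286) and the zinc importer Slc39a10 fell (-1.11, adjusted p = 0.000274). Of 80 small nucleolar and Cajal body RNAs 9 rose and 71 did not pass, and their values varied widely between replicates. Snord35b, for example, was at 744, 559.5 and 523 FPKM and then 1569, 1741 and 870.2 FPKM (1.15, adjusted p = 0.00734), but did not pass in the model over 12 libraries (adjusted p = 0.0953).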
